A study of Mus musculus with 40 samples.

Results

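The nuclear-encoded subunits of mitochondrial complex I were taken as all gene symbols of the form Nduf followed by a, ab, b, c, s or v, a number and at most 1 further letter, which leaves out the assembly factors (Ndufaf genes). The rule found 43 of the 40213 symbols in the deposited count tables, and 40 of the 43 passed the filter on low counts in both tissues. The members fell into 3 core subunits of the NADH-oxidizing N module (Ndufv1, Ndufv2 and Ndufs1), 4 core subunits of the quinone-binding Q module (among them Ndufs3, Ndufs7 and Ndufs8), 9 accessory subunits of the matrix arm, 9 of the proximal and 12 of the distal membrane arm, Ndufa4, and 5 further symbols (Ndufb4b, Ndufb4c, Ndufa11b, Ndufb11b and Ndufs6b). Ndufa4 keeps its name from complex I, although its protein is now placed in complex IV (cytochrome c oxidase). RefSeq lists Ndufa11b as a transcribed pseudogene and Ndufs6b as a pseudogene, and both are counted among the 43.

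Complex I is the L-shaped enzyme at the entry of the respiratory chain: its matrix arm takes electrons from NADH through a flavin and a row of iron-sulfur clusters to ubiquinone, and its membrane arm pumps protons. The nuclear subunits are made in the cytosol and join the subunits encoded by mitochondrial DNA during a stepwise assembly. Complex I is the enzyme that MPP+, the toxic metabolite of MPTP in dopaminergic neurons, inhibits.

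Poly(A) RNA from the midbrain and the spinal cord of male C57BL/6N mice, 8 weeks old by their labels, was sequenced in 40 libraries, 20 per tissue, in 5 groups of 4. The Con mice received saline in place of the neurotoxin MPTP. All other mice received MPTP at 20 mg/kg intraperitoneally, 4 times at 2 h intervals, and from 1 week later 4 injections at the acupoint GB34 of the lower leg, given on 2 days a week. These held saline in MPTP-Veh, as did the GB34 injections that Con received by the study's methods, and SUEHP, a herbal pharmacopuncture solution, in MPTP-SU. In MPTP-SU+S, SUEHP was combined with a CB1 (cannabinoid receptor) antagonist at 3 mg/kg, which the labels spell SR141714A and the study's methods SR141716A. In MPTP-SU+T it was combined with the PPARγ inhibitor T0070907 at 5 mg/kg. No solvent-only group for the inhibitors was analysed here. The sources used here do not say whether each library came from a separate animal, or whether a midbrain and a spinal cord library came from the same one, so p-values measure the spread between these libraries.

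Levels are given as CPM, the usual scaling of a gene's count to library size, here with TMM-adjusted sizes. A member was called where the Benjamini-Hochberg adjusted p of edgeR's quasi-likelihood test, fitted over all tested genes of a tissue, was below 0.05. Library totals ran from 11958200 to 16639823 estimated counts in midbrain and from 14642808 to 16615378 in spinal cord, of which the members took 39444 to 61830 and 38933 to 52137. Th, the rate-limiting enzyme of dopamine synthesis, stood at 47.6 ± 14.9 CPM (SD, n = 4) in midbrain Con and 3.61 ± 0.275 in spinal cord Con, and of 8 motor neuron and spinal cord genes 3 passed the filter in midbrain and all 8 in spinal cord. One library stood apart: midbrain MPTP-Veh replicate 4 had the lowest total, 1.354% of its counts on mitochondrial genes and a summed level of 6 oligodendrocyte markers of 35362 CPM. The main midbrain results that use MPTP-Veh are therefore given with and without it.

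In that library 24 of the 40 members were above and 12 below all 19 other midbrain libraries. Relative to the mean of MPTP-Veh replicates 1 to 3, Ndufb7 stood at 6.30, Ndufa2 at 5.60, Ndufa11 at 4.06, Ndufv1 at 3.83 and Ndufs7 at 3.62, whereas Ndufab1 stood at 0.441, Ndufb1 at 0.304, Ndufb4 at 0.163 and Ndufb4c at 0.145, and Ndufb4b had no count. Members thus lay at both extremes in this library. How many of all tested genes did so was not counted, so this is not a result about the members alone.

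Per kilobase of transcript, the highest mean levels in Con were those of Ndufa4 (271 CPM per kb in midbrain, 292 in spinal cord), of Ndufb9, an LYR-motif subunit of the membrane arm (208 and 170.5), and of Ndufb8 (186 and 183). The lowest were those of Ndufb4c (35.9 and 32.4), of Ndufs4, a matrix-arm subunit whose loss in mice causes a fatal encephalopathy (36.7 and 35.2), and of Ndufb3 (50.8 and 48.5). Ndufb4b and Ndufb4c are near-copies of Ndufb4 and may share its reads, so their values are uncertain. Ndufa11b, Ndufb11b and Ndufs6b did not pass the filter: their highest levels in any of the 40 libraries were 0.361, 0.0754 and 1.19 CPM.

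Over all 40 libraries 20 of the 40 members were higher in midbrain than in spinal cord and 0 lower, against 34.5% and 31.7% of all tested genes, and 36 had a positive difference. The median difference was 0.16 on the log2 scale, against 0.02 over all genes. Only Ndufb4b passed a 1.5-fold threshold as well, against 22% of all genes. Ndufb11, a membrane-arm subunit encoded on the X chromosome, had 61.6 ± 7.09 CPM in midbrain and 46.0 ± 3.02 in spinal cord (mean ± SD, n = 20), a log2 difference of 0.42 with a standard error (SE) of 0.045 and an adjusted p of 3.89e-10 in edgeR. It was followed in order of p by Ndufb9 (log2 difference 0.31), Ndufc1 (0.27), Ndufb5 (0.43) and Ndufs3 (0.37). The largest differences were those of Ndufb4b (1.08, SE 0.34), Ndufb5 and Ndufa8 (both 0.43), and the lowest, none of them called, those of Ndufb4c (-0.09), Ndufb3 (-0.03) and Ndufa10 (-0.01). The largest p-values belonged to Ndufs5, Ndufa1 and Ndufv2 (0.02 for each of the last pair). In the 8 Con libraries alone 6 members were called, and without midbrain MPTP-Veh replicate 4 there were 23. The share of all genes called was not counted in these fits.

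Promoter sequences were looked up because many of these genes are known targets of a few shared transcription factors. RefSeq promoters on GRCm38.p6, 250 bases before to 50 after the start, were found for 35 of the 43 members, with a median GC content of 59% against 52.7% over all 32851 promoter records. The word AAGATGGC, the core of the YY1 motif, stood in 7 of the 35 (20%) against 2.75% of all promoters, always on the gene's own strand and 23 to 39 bases past the start: in Ndufa3, Ndufa9, Ndufb8, Ndufc1, Ndufs4, Ndufs6 and Ndufs7. The NRF1 word GCGCATGC stood in Ndufa6, Ndufa8 and Ndufa11 (8.57% against 2.71%), the GABPA (NRF-2) word CCGGAAG in Ndufb6, Ndufb7, Ndufs3 and Ndufs8 (11.4% against 8.86%), the ESRRA word CAAGGTCA in Ndufs5 (2.86% against 1.56%) and the SP1 word GGGCGG in 15 members (42.9% against 35.7%). Both strands were searched, different motifs overlapped in Ndufs3 alone (GABPA and SP1), the NRF1 words on both strands of Ndufa11 overlapped each other, and a match is a description of letters, not of binding.

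Promoters of 5 members are shown, 4 with a match and 1 without, all from members whose levels are given in full. The first 4 hold in capitals the YY1 word at +25 (Ndufs7, chr10:80249199-80249498, plus strand), the YY1 word at +36 (Ndufs4, chr13:114388045-114388344, minus strand), the NRF1 word on the opposite strand at -83 (Ndufa6, chr15:82354242-82354541, minus strand) and the GABPA word at -20 (Ndufb7, chr8:83566508-83566807, plus strand). The last, of Ndufb3 (chr1:58586147-58586446, plus strand), holds none of these 3 words and no ESRRA word. Each is written 5′ to 3′ on the gene's strand.
Ndufs7: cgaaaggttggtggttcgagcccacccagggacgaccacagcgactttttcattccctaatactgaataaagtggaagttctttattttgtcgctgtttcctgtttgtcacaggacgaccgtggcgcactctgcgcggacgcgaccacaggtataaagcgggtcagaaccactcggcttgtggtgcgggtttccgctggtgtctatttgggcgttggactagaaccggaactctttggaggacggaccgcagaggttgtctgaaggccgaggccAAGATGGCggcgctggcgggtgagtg
Ndufs4: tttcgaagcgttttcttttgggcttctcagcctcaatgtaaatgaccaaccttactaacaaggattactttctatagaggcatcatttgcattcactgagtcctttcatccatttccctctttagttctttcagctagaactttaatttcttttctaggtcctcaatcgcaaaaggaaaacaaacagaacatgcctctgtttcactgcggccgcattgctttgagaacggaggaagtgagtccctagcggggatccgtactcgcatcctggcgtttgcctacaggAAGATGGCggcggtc
Ndufa6: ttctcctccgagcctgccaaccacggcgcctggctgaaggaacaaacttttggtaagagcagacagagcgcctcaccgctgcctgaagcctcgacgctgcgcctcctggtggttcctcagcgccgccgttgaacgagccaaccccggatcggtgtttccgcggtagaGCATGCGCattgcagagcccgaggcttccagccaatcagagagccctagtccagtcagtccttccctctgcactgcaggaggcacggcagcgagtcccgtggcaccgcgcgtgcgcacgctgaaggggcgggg
Ndufb7: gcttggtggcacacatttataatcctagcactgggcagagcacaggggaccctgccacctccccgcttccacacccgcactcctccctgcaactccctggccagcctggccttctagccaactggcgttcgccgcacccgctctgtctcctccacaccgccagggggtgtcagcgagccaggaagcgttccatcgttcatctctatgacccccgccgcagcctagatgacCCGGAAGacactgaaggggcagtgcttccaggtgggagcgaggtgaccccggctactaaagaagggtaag
Ndufb3: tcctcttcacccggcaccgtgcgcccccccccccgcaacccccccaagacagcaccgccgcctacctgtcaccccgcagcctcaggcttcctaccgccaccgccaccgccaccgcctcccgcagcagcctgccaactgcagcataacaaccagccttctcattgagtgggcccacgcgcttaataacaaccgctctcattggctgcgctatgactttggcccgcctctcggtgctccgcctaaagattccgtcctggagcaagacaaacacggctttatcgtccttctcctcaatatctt

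The comparison of MPTP-SU with MPTP-Veh asks what SUEHP changed after MPTP. In the midbrain 19 of the 40 members fell and 1, Ndufa4, rose, against 20.1% of all genes called, 12.8% lower and 7.38% higher. The members' median log2 fold change was -0.43, against 0.00 over all genes, and 30 members had a negative value. Of the 19, 11 also passed a 1.5-fold threshold (9.1% of all genes, and 5 members without MPTP-Veh replicate 4), and 20 members lay below MPTP-Veh in every MPTP-SU library, against 11.3% of all genes. This last count holds Ndufs4, which was not called, in addition to the 19. Without MPTP-Veh replicate 4, 18 members fell and 0 rose, against 8.07% and 6.55% of all genes, 17 of them the same, and the median was -0.23 against 0.02. Ndufs6 and Ndufs8 were called only with that library and Ndufv2 only without it. In bulk tissue fewer cells of a type and less RNA per cell cannot be told apart.

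**Figure D1:**
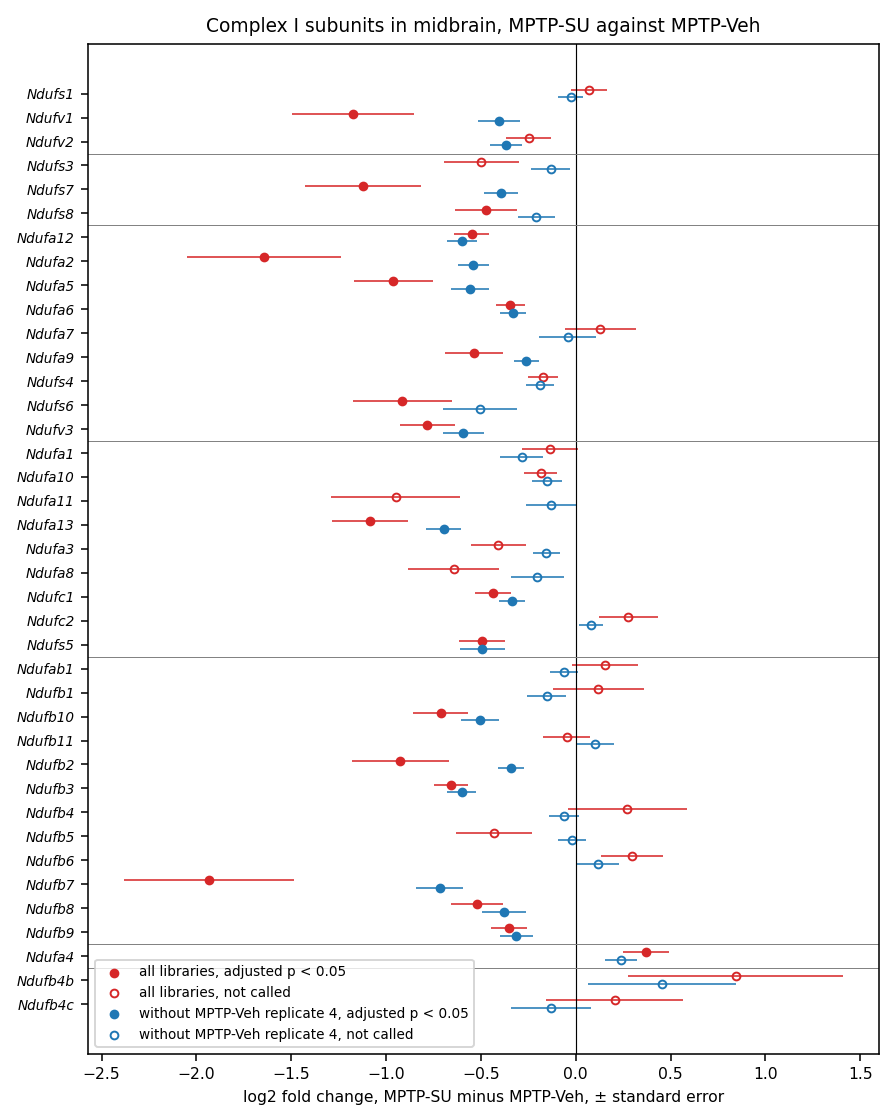
Log2 fold change (x axis, with standard error bars) of the tested members shown in midbrain, MPTP-SU against MPTP-Veh, with all 20 midbrain libraries and without MPTP-Veh replicate 4. With all libraries 19 members were called lower and 1 higher, and without the library 18 were called lower. The values without it lie nearer to 0 for Ndufb7, Ndufa2, Ndufs7 and Ndufv1.

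By structure, 7 of 9 accessory subunits of the matrix arm fell, 6 of 12 of the distal and 3 of 9 of the proximal membrane arm, 2 of 4 core Q subunits and 1 of 3 core N subunits. The medians were -0.55, -0.39, -0.44, -0.49 and -0.25. Without MPTP-Veh replicate 4 the counts were 6, 6, 3, 1 and 2, with medians of -0.51, -0.23, -0.20, -0.18 and -0.37. Differences between these groups of members were not tested.

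Ndufb3, a small subunit of the distal membrane arm, had the lowest p. It stood at 46.1, 43.6, 40.5 and 50.2 CPM in the MPTP-Veh libraries and at 28.3, 26.8, 31.8 and 27.3 CPM in the MPTP-SU libraries. The groups did not overlap, and MPTP-Veh replicate 4 was only slightly above the other replicates. Its log2 fold change was -0.66 (SE 0.088, edgeR adjusted p = 0.00138) and was -0.60 (SE 0.077) without replicate 4.

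Ndufa12, a matrix-arm subunit added late in assembly, stood at 145, 149, 154 and 129 CPM in MPTP-Veh and at 103, 101, 99.4 and 90.5 CPM in MPTP-SU. Here replicate 4 was the lowest of its group and still above every MPTP-SU library. The log2 fold change was -0.55 (SE 0.091, edgeR adjusted p = 0.00302), and -0.60 (SE 0.080) without replicate 4. Ndufa6, an LYR-motif subunit that binds the acyl carrier protein, had 112, 97.8, 95.2 and 105 CPM against 78.9, 81.1, 79.7 and 82.8 CPM, and Ndufs5, a subunit facing the intermembrane space, 96.0, 94.1, 89.3 and 93.7 CPM against 55.2, 60.6, 70.0 and 78.9 CPM. In both the groups were apart and replicate 4 lay among the others, with log2 fold changes of -0.34 and -0.49.

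Ndufa13 (GRIM-19), needed to build the proximal membrane arm, stood at 111, 114, 106 and 248 CPM in MPTP-Veh and at 59.8, 63.4, 71.3 and 78.4 CPM in MPTP-SU. Ndufv3, a small accessory subunit near the flavin-binding core, had 104, 102, 103 and 162 CPM against 60.2, 66.5, 71.5 and 75.4 CPM. Ndufb10 of the distal membrane arm had 135, 139, 124 and 215 CPM against 86.9, 89.7, 98.0 and 99.2 CPM. In all 3 members replicate 4 was far above replicates 1 to 3, and replicates 1 to 3 were above every MPTP-SU library. The log2 fold changes were -1.09 (SE 0.20), -0.78 (SE 0.15) and -0.71 (SE 0.15), with edgeR adjusted p of 0.00553, 0.00553 and 0.00809. Without replicate 4 they were -0.70, -0.59 and -0.50, all still called.

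**Figure D2:**
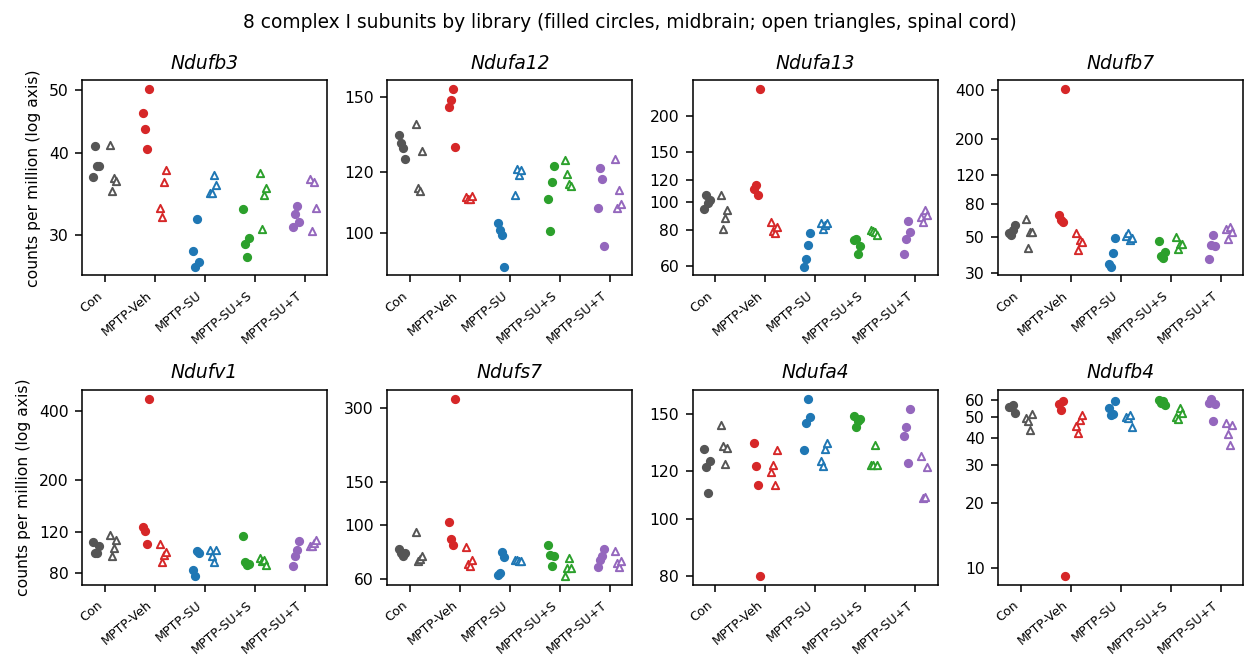
CPM (y axis, logarithmic) of 8 members in each library by group (x axis), 1 point per library, with filled circles for midbrain and open triangles for spinal cord. In midbrain the 4 MPTP-Veh points of Ndufb3 and Ndufa12 lie together above the MPTP-SU points, while in Ndufb7 MPTP-Veh replicate 4 (406 CPM) lies far above replicates 1 to 3 (61.6 to 68.2 CPM).

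The largest fold changes rested in size on replicate 4. Ndufb7, a twin-cysteine subunit of the intermembrane space face, stood at 68.2, 63.4, 61.6 and 406 CPM in MPTP-Veh against 34.1, 33.0, 40.2 and 49.3 CPM in MPTP-SU. Ndufa2, a matrix-arm subunit with a thioredoxin-like fold, had 68.2, 63.1, 58.9 and 355 CPM against 43.5, 38.9, 45.5 and 46.3 CPM. The groups were apart with or without that library, but the log2 fold changes went from -1.93 (SE 0.45, edgeR adjusted p = 0.0125) to -0.72 (SE 0.13) for Ndufb7 and from -1.64 (SE 0.41, adjusted p = 0.0158) to -0.54 for Ndufa2. Ndufa5 of the matrix arm went from -0.96 to -0.56.

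Of the core N module, Ndufv1, which binds NADH and the flavin, stood at 126, 121, 107 and 451 CPM in MPTP-Veh and at 82.2, 77.4, 99.2 and 97.3 CPM in MPTP-SU, and fell (log2 fold change -1.17, SE 0.32, edgeR adjusted p = 0.0222; -0.40, SE 0.11, without replicate 4). Ndufv2, which carries an iron-sulfur cluster, had 253, 229, 229 and 161 CPM against 195, 194, 175 and 171 CPM. Replicate 4 was the lowest library of all 8 here, and the change of -0.25 was not called (adjusted p = 0.126) with it but was (-0.37, SE 0.085, adjusted p = 0.00749) without it. Ndufs1, the largest core subunit, had 167, 145, 153 and 115 CPM against 155, 159.9, 153 and 139.9 CPM. Its groups overlapped with or without replicate 4 and it was not called (0.07, adjusted p = 0.607).

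Of the core Q module, Ndufs7, which lines the quinone site and holds the last iron-sulfur cluster, had 103, 87.3, 82.3 and 329 CPM in MPTP-Veh against 62.1, 63.2, 77.0 and 73.5 CPM in MPTP-SU. It fell by 1.12 on the log2 scale (SE 0.30, edgeR adjusted p = 0.0214) and by 0.39 without replicate 4. Ndufs8, with a pair of iron-sulfur clusters, had 76.4, 79.1, 74.9 and 139 CPM against 57.1, 61.9, 73.6 and 73.4 CPM, and its call (-0.47, adjusted p = 0.0472) was lost without replicate 4 (-0.21). Ndufs3 had 78.3, 77.5, 75.4 and 167 CPM against 56.6, 68.8, 76.9 and 78.9 CPM. Its groups overlapped and it was not called (-0.50, adjusted p = 0.0733, and -0.13 without replicate 4).

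The member that rose, Ndufa4, stood at 134, 123, 114 and 80.2 CPM in MPTP-Veh and at 130.3, 145, 159 and 148 CPM in MPTP-SU. Its groups overlapped (two-sided exact permutation p = 0.0571, the smallest possible being 0.0286), and its log2 fold change of 0.37 (SE 0.12, edgeR adjusted p = 0.0417) became 0.24 (adjusted p = 0.0588) without replicate 4. Ndufs4 had 73.6, 63.3, 63.8 and 63.6 CPM against 58.6, 58.1, 58.7 and 59.4 CPM, a gap with no overlap that did not pass (-0.17, adjusted p = 0.115). Ndufab1, the mitochondrial acyl carrier protein, and Ndufa1, a small X-linked subunit, were not called (0.15 and -0.14, or -0.063 and -0.28 without replicate 4). The largest p-values were those of Ndufb11 (-0.05), Ndufb1 (0.12) and Ndufb4c (0.20), and without replicate 4 these differences had the opposite sign (0.10, -0.15 and -0.13).

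The calls drew on the spread over all 20 midbrain libraries. Fitted on just the 8 libraries of these groups, edgeR called 0 members and 0 of 15764 genes. At an unadjusted p below 0.05 there were 18 members, with the share of all genes not counted. The same fit without MPTP-Veh replicate 4 called 15 members and 1786 of 16042 genes (11.1%), with a median of -0.24 over the members. In the fit over 20 libraries 28 members had an unadjusted p below 0.05, 27 of them lower, against 39.8% of all genes.

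Summed over the 43 members, the midbrain libraries stood at 3736, 3567, 3441 and 5818 CPM in MPTP-Veh and at 2781, 2869, 3120 and 3172 CPM in MPTP-SU. The 4 MPTP-SU libraries lay below every MPTP-Veh library. The means were 3259 ± 74.5 (SD, n = 4) in Con, 3581 ± 148 in MPTP-Veh replicates 1 to 3 (4140 ± 1125 with replicate 4), 2986 ± 190 in MPTP-SU, 3160.0 ± 155 with the CB1 antagonist added and 3116 ± 128 with the PPARγ inhibitor added. Without replicate 4 the MPTP-SU mean was thus 16.6% below that of MPTP-Veh. Of the 40 members, 37 had a higher mean in MPTP-Veh replicates 1 to 3 than in Con, and 28 a lower mean in MPTP-SU than in Con. For neither count was the share of all genes taken, and MPTP-SU was not tested against Con.

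**Figure D3:**
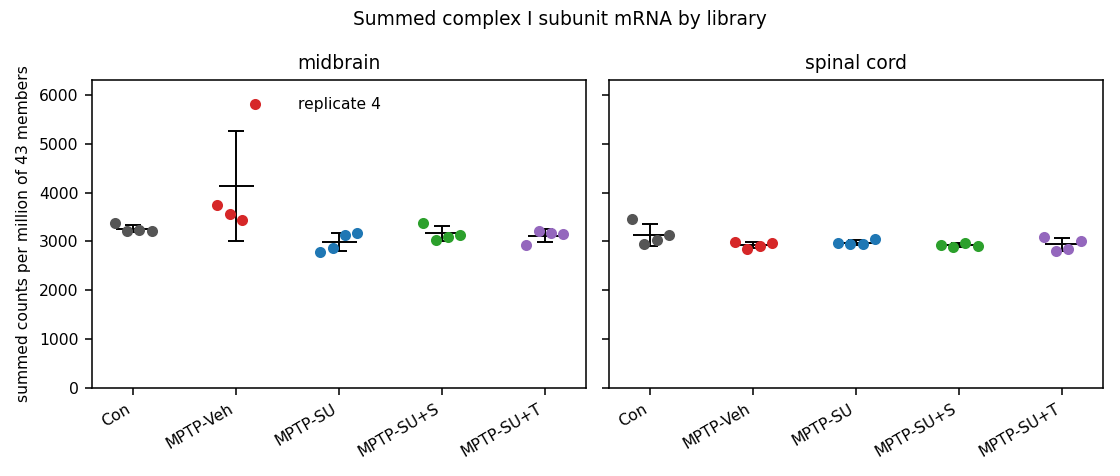
Summed CPM of the members (y axis) in each of the 40 libraries, 1 point per library with the group mean and SD, midbrain and spinal cord side by side. Midbrain MPTP-Veh replicate 4 (5818 CPM) lies above all others, the MPTP-SU midbrain libraries (2781 to 3172 CPM) lie below all MPTP-Veh midbrain libraries, and the spinal cord group means run from 2919 to 3133 CPM.

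For MPTP-Veh against Con in the midbrain, which asks what MPTP alone changed, 0 of 40 members were called by edgeR, against 0.018% of all genes (3 genes). At an unadjusted p below 0.05 there were 17, all higher in MPTP-Veh, against 23.7% of all genes. DESeq2 called 6 and limma-voom 2, with the share of all genes not counted. By edgeR the median difference was 0.19 and 30 members had a positive one. Without MPTP-Veh replicate 4 the count was 0 again, against 0.00594% of genes lower and 0% higher, with 10 members at an unadjusted p below 0.05, against 12.1% of all genes, and a median of 0.14. The lowest p was that of Ndufc1, a small membrane-arm subunit, at 47.2, 48.3, 45.9 and 47.6 CPM in Con and 61.2, 54.2, 55.4 and 73.4 CPM in MPTP-Veh. Every MPTP-Veh library was above every Con library (log2 fold change 0.37, SE 0.093, adjusted p = 0.130, and 0.27 without replicate 4). Ndufa2 followed at 1.46 (SE 0.40), with the value of 355 CPM in replicate 4 described above, and at 0.36 (SE 0.082) without that library. This comparison and that of MPTP-SU with MPTP-Veh share the MPTP-Veh libraries.

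The combinations with the CB1 antagonist or the PPARγ inhibitor were compared with MPTP-SU, whose libraries both comparisons share. In the midbrain edgeR called 0 of 40 members in either, as it did 0% of all genes. DESeq2 and limma-voom also called 0 members, with the share of all genes not counted. An unadjusted p below 0.05 was reached by 1 member with the CB1 antagonist and by 0 with the PPARγ inhibitor, against 1.65% and 1.7% of all genes. The medians were 0.08 and 0.06, and 37 and 31 members were higher with the inhibitor. Of all genes 48.5% and 48% had a negative difference. The lowest p-values with the CB1 antagonist were those of Ndufa12 (0.19, SE 0.091, unadjusted p = 0.0482) and Ndufc1 (0.16, unadjusted p = 0.0939). With the PPARγ inhibitor they were those of Ndufa12 (0.17, unadjusted p = 0.0804) and Ndufb3 (0.16, unadjusted p = 0.0828).

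Ndufb3 stood at 36.8, 41.1, 38.2 and 38.3 CPM in Con, at 32.9, 29.0, 27.8 and 29.6 CPM with SUEHP and the CB1 antagonist and at 30.8, 32.3, 33.3 and 31.4 CPM with SUEHP and the PPARγ inhibitor. All 12 libraries that received SUEHP were thus below the 4 Con libraries. Ndufa13 showed the same order, with 94.7, 106, 99.8 and 102 CPM in Con, 73.9, 74.4, 66.2 and 70.4 CPM with the antagonist and 65.9, 74.3, 86.1 and 79.0 CPM with the inhibitor. The test for any difference among the 5 midbrain groups called 11 members, against 7.1% of all genes. It was led by Ndufb3 (edgeR adjusted p = 0.00153), Ndufa12 (0.00842), Ndufa13 (0.00872), Ndufs5 (0.0160) and Ndufv3 (0.0178). The largest p-values were those of Ndufb1, Ndufs1 and Ndufb4. Without MPTP-Veh replicate 4 it called 18 members, with the share of all genes not counted.

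**Figure D4:**
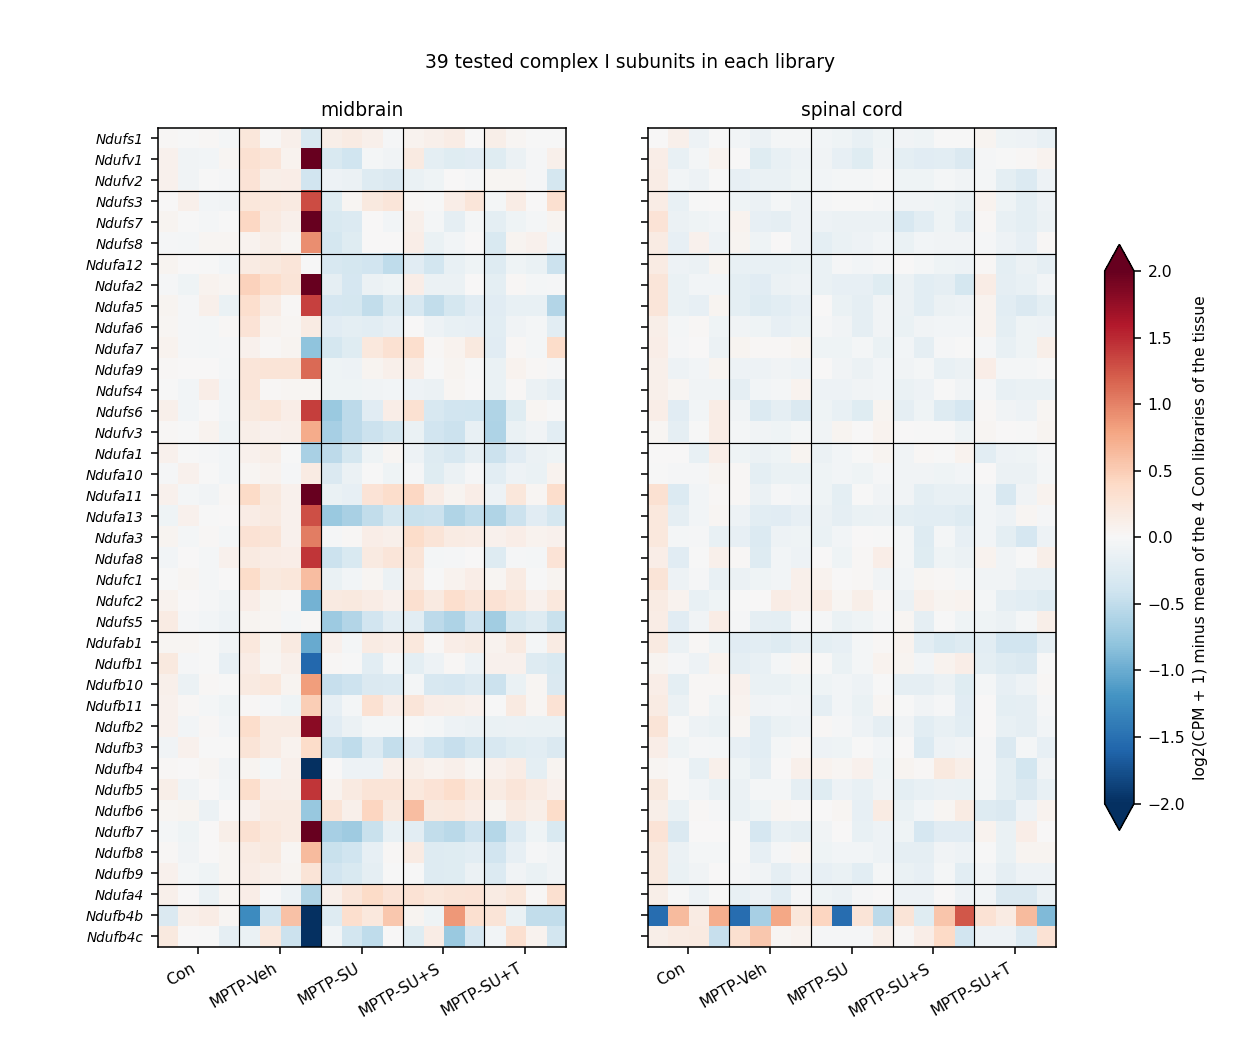
Level of the tested members shown in each of the 40 libraries as the difference of its log2(CPM + 1) from its mean over the Con libraries of the same tissue (colour scale), with libraries in columns by tissue and group. In midbrain the column of MPTP-Veh replicate 4 stands out in both directions, with 24 members above and 12 below all other midbrain libraries. How many of all tested genes did so was not counted.

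In the spinal cord edgeR called 0 of 40 members in each of the 4 comparisons, against 0% of all genes in the first 3 and 0.036% (6 genes) in the last. For MPTP-Veh against Con, 13 members had an unadjusted p below 0.05, all lower in MPTP-Veh, against 12.8% of all genes. The median was -0.10 and 37 members had a negative difference. The lowest p-values were those of Ndufa13 (-0.18, SE 0.059, adjusted p = 0.243), at 106, 80.8, 88.4 and 93.8 CPM in Con and 85.3, 79.5, 78.1 and 81.8 CPM in MPTP-Veh, and of Ndufab1 (-0.23, SE 0.077, adjusted p = 0.249). The groups of Ndufa13 overlapped.

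For MPTP-SU against MPTP-Veh in the spinal cord no member had an unadjusted p below 0.05, against 3.81% of all genes, and the median was 0.03. Ndufa7 and Ndufv2 had the lowest p-values (0.0554 and 0.0952, both 0.999 adjusted). Adding the CB1 antagonist gave 0 members below that level, against 5.49% of all genes, and a median of -0.03. Ndufb10 (-0.12) and Ndufa8 (-0.14) were lowest in p. Adding the PPARγ inhibitor gave 7, 6 of them lower, against 12.1% of all genes, and a median of 0.00. Ndufc2, a membrane-arm subunit, had the lowest p of these (69.8, 64.5, 67.9 and 63.7 CPM in MPTP-SU, 61.3, 55.3, 54.0 and 52.6 CPM in MPTP-SU+T). Its groups were apart, and its difference of -0.25 (SE 0.068) had an adjusted p of 0.174, followed by Ndufab1 (-0.20, adjusted p = 0.295). DESeq2 and limma-voom each called 1 member there and 0 in the other 3 comparisons, with the share of all genes not counted. The test for any difference among the 5 groups called 0 members, against 0.15% of all genes, and had its lowest p-values in Ndufv1 (adjusted p = 0.116) and Ndufa13 (0.139). It gave 11 members an unadjusted p below 0.05, with the share of all genes at that level not counted.

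The difference between MPTP-SU and MPTP-Veh was then compared between the tissues by an interaction term. It was lower in midbrain for 20 members and higher for 0, against 16.8% of all genes in either direction, with a median of -0.43 against 0.00 over all genes. Ndufb3 (-0.69, SE 0.11, edgeR adjusted p = 0.000228), Ndufa12 (-0.63), Ndufv3 (-0.84), Ndufa13 (-1.12) and Ndufa5 (-1.07) had the lowest p-values. Ndufb11 (0.00), Ndufab1 (0.03) and Ndufb1 (0.06) had the largest. The fit over 40 libraries gave each gene 1 spread for both tissues. Fitted apart, edgeR's common dispersion, a measure of spread, was 0.0512 in midbrain and 0.0071 in spinal cord. In the spinal cord Ndufb3 stood at 33.0, 32.0, 36.2 and 37.8 CPM in MPTP-Veh and at 34.8, 34.8, 37.1 and 35.8 CPM in MPTP-SU, and Ndufa12 at 111, 111, 111 and 112 CPM and at 112, 121, 119 and 121 CPM. Without midbrain MPTP-Veh replicate 4 the interaction was called for 15 members, and in the 16 libraries of these groups alone for 2. The share of all genes was not counted in either of these fits.

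The rest of the pathway was described with lists. Of all genes 12.8% were called lower and 7.38% higher in midbrain for MPTP-SU against MPTP-Veh. Without replicate 4 these shares were 8.07% and 6.55%. In the midbrain comparison of MPTP-SU with MPTP-Veh, 14 of 38 subunits of complexes II to V fell and 2 rose (median -0.27, and 10 and 3 with a median of -0.11 without replicate 4). Of 17 complex I assembly factors 4 fell, namely Ndufaf1, Ndufaf6, Ecsit and Timmdc1, and 0 rose (median -0.24). Without replicate 4 the 4 that fell were Ndufaf1, Ndufaf2 (-0.70), Ndufaf5 and Ndufaf6. Ecsit and Timmdc1 were then not called, and 2, Tmem126b and Tmem70, rose (median of the 17 -0.15). Of the 7 complex I subunits encoded by mitochondrial DNA only ND6, whose gene lies on the opposite strand from the others, fell (log2 fold change -1.65, SE 0.18, and -1.48 without replicate 4), and the median of the 7 was 0.30 (-0.07 without replicate 4). Of 12 regulators of mitochondrial biogenesis only Yy1, which codes for the factor whose motif 7 members hold, was called, and it rose (0.49, SE 0.10, adjusted p = 0.00846). Without replicate 4, Gabpa (0.52), Yy1 (0.41) and Tfb2m (0.33) rose, 3 of the 12, with a median of 0.08. Binding of YY1 to these promoters was not measured.

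Cell type markers were counted in the same comparison, where 12.8% of all genes were called lower and 7.38% higher. Without replicate 4 the shares of all genes were 8.07% and 6.55%. Of 8 neuron markers 4 were called lower (Rbfox3, Syn1, Eno2 and Nefl) and 0 higher, with 5 lower without replicate 4. The markers did not all go down: with all libraries the highest log2 fold change of the 8 was 0.75. Without replicate 4 Syt1 (0.47), Map2 (0.22) and Stmn2 (0.04) had positive changes that were not called. The summed level of the 8 ran from 5482 to 6653 CPM in MPTP-SU against 6379 to 7196 in MPTP-Veh. Called lower and higher were 2 and 0 of 6 astrocyte, 1 and 0 of 6 oligodendrocyte, 2 and 0 of 6 microglia, 1 and 0 of 4 vessel, 2 and 1 of 5 red blood cell and 3 and 0 of 5 long nuclear RNA genes. Without replicate 4 these were 0 and 1, 0 and 0, 0 and 1, 1 and 0, 0 and 1 and 2 and 0. None of the 7 dopaminergic (346.6 to 629.8 CPM in MPTP-Veh, 353 to 607 in MPTP-SU), 3 motor neuron, 4 choroid plexus and 2 muscle markers tested was called. All these lists had 0 calls for MPTP-Veh against Con in either tissue and for MPTP-SU against MPTP-Veh in the spinal cord. Of all genes 0.018% were called for MPTP-Veh against Con in midbrain and 0% in both spinal cord comparisons. These counts therefore cannot show whether the markers were stable there. The part of cell composition in the members' values was not tested.

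GC content moved with the members' changes. In midbrain, MPTP-SU against MPTP-Veh, the log2 fold change correlated with transcript GC content at Pearson's r = -0.59 and Spearman's rho = -0.60 across the 39 tested members with a transcript, and at r = -0.40 across all 15477 genes (r = -0.18 across 15624 genes without replicate 4). Genes of one library set share depth and base composition and are not replicates. Of the members with GC of 55% and above 10 of 12 fell, with a median of -0.85 against -0.39 over the other genes of that class. From 50 to 55% it was 7 of 15 (-0.44 against -0.10), from 45 to 50% 1 of 7 (0.07 against 0.13) and below 45% 1 of 5 (-0.17 against 0.34). Within a GC class the share of the other genes called lower was not counted. Without replicate 4 the member medians from the highest to the lowest class were -0.40, -0.20, -0.03 and -0.19, against -0.11, -0.02, 0.06 and 0.17 over the other genes, and r over the members was -0.40. With the GC and length trend over all genes removed, 15 members were called with a median of -0.27, and 18 with a median of -0.18 without replicate 4. With the trend removed, the share of all genes called was not counted.

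**Figure D5:**
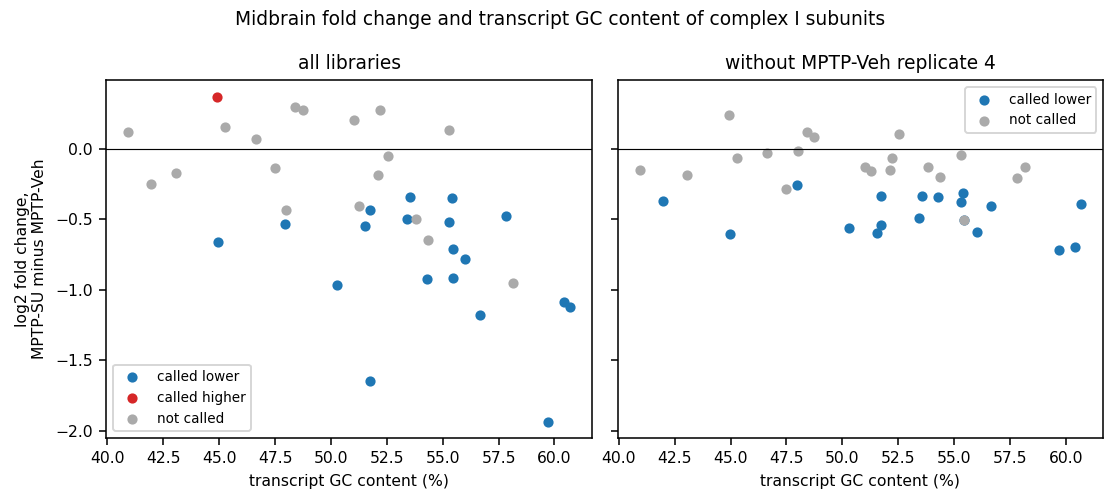
Log2 fold change of MPTP-SU against MPTP-Veh in midbrain (y axis) against transcript GC content in percent (x axis) for members with a transcript, 1 point per member, coloured by call, with all libraries (left) and without MPTP-Veh replicate 4 (right). Values are lower at higher GC content (over all 39 members r = -0.59 with all libraries and -0.40 without replicate 4).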

How the data were processed

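Libraries from midbrain and spinal cord (5 groups of 4 per tissue) were made from poly(A) RNA with a CORALL RNA-Seq V2 kit and sequenced from both ends on an Illumina instrument. Per the labels RNA was extracted with RNAiso Plus, per the study's methods with an Easy-Spin kit. The authors used fastp for trimming, STAR for alignment and Salmon for quantification (submitters' notes also name GATK and GRCm39, versions not given in the sources used here), and deposited estimated counts per gene, which were used as deposited. Such counts can be split between near-copies of a gene. All 40 libraries were used, and no column of per-sample values was left out.

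The members and lists were chosen with earlier results of these data known. Low counts were removed with filterByExpr, leaving 16629 genes in midbrain, 16682 in spinal cord and 17426 over both. edgeR 4.0.16 (R 4.3.3, TMM scaling, quasi-likelihood test, Benjamini-Hochberg adjustment over all tested genes) was fitted once per tissue over its 20 libraries, and once over all 40 for the tissue difference and the interaction. A standard error is the absolute log2 fold change divided by the square root of F. Single genes were also compared by a two-sided exact permutation test on log2(CPM + 1). Alternatives were DESeq2 1.42.0, limma-voom 3.58.1 with sample weights, other scalings and count filters, a replicate block, removal of a GC and length trend (splines with 4 degrees of freedom), the compared libraries alone and each library left out; 5 more, mostly combinations without midbrain MPTP-Veh replicate 4, were added after seeing the data. The code was checked on simulated data. Transcript lengths and GC came from GENCODE M21 (principal transcripts), found for 41 members.

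Named in full were core subunits, the 5 called members with the lowest and the 3 with the highest p of a comparison (the 2 lowest where none was called), the 3 largest tissue differences in each direction, the 3 members that failed the filter, and Ndufs4, Ndufa1, Ndufab1 and Ndufa4. Ndufb7, Ndufa2, Ndufa6, Ndufs5 and the members at the extremes of replicate 4 or of level were chosen after their values were seen. One member counted in all totals is not reported here by itself and is left out of the plots. Lists held mitochondrially encoded complex I genes, assembly factors, biogenesis regulators, complex II to V subunits, long nuclear RNAs and markers of neurons, dopaminergic and motor neurons, astrocytes, oligodendrocytes, microglia, vessels, red blood cells, choroid plexus and muscle.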

Additional observations from a re-analysis of the deposited data

Results flagged for a closer look

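In groups of 4 libraries a value was listed here where its gap to the nearest other library exceeded Dixon's 95% limit, which chance alone passes in about 5% of groups. In midbrain MPTP-Veh, 24 of the 40 tested members had 1 library standing apart, 18 of them with replicate 4 high and 5 with it low, while the other 9 groups had 0 to 5 such members, 15 in all. Genes other than the members were not put through this rule, so the count is not a result about the members alone. The members' summed level in that replicate was 5818 CPM, and that of the nuclear subunits of complexes II to V 11625 CPM. The summed level of the members also stood apart in midbrain Con replicate 1 (3370.0 CPM) and in spinal cord MPTP-SU replicate 4 (3050.2 CPM), and that of the mitochondrially encoded complex I genes in spinal cord Con replicate 2 (54730.3 CPM).

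The difference of MPTP-SU from MPTP-Veh differed between midbrain and spinal cord, by the interaction term in edgeR, for 20 members. Among the named ones the log2 difference between the tissues was -0.63 for Ndufa12, -1.12 for Ndufa13, -1.07 for Ndufa5, -0.69 for Ndufb3, -1.09 for Ndufs7, -1.15 for Ndufv1 and -0.84 for Ndufv3.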

How the results depend on the processing

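For MPTP-SU against MPTP-Veh in midbrain the called members numbered 11 with a 1.5-fold threshold added and 0 in the 8 libraries alone, and leaving out single libraries gave 9 (without MPTP-SU replicate 2), 11 (without MPTP-SU replicate 1) to 26 (without MPTP-Veh replicate 3), with medians from -0.51 to -0.23 (without MPTP-Veh replicate 4). The median was -0.30 under limma-voom, also without replicate 4, -0.27 with the GC and length trend removed, -0.18 with that and no replicate 4, and -0.24 in 7 libraries. Without replicate 4 alone 7 members, 0 of them called, had the opposite sign. Among core subunits named above, signs turned for Ndufs8 (0.029 with the trend removed, 0.00046 with that and no replicate 4), Ndufs3 (0.033 with that and no replicate 4) and Ndufs1 (-0.092 with the trend removed, -0.081 with that and no replicate 4, -0.027 without replicate 4, -0.036 in 7 libraries). The cause was not tested. For most fits in this section the share of all genes called was not counted. A change in the number of called members is therefore not a result about the members alone.

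For MPTP-Veh against Con in midbrain DESeq2 called 6 and limma-voom 2, the median was 0.021 with library sizes free of mitochondrial and haemoglobin genes and 0.079 with the trend removed, and leaving out single libraries gave 0 to 12 (12 without MPTP-Veh replicate 3), medians 0.14 to 0.22. That scaling shifted the median of all genes by -0.16 there and by 0.11 and 0.12 for the CB1 and PPARγ combinations, whose member medians became 0.19 and 0.17. Leaving out single libraries gave 0 calls for both, with medians of 0.03 to 0.13 and 0.01 to 0.12. The test among 5 midbrain groups called 18 without MPTP-Veh replicate 4.

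In spinal cord DESeq2 and limma-voom each called 1 member with the PPARγ inhibitor. For MPTP-Veh against Con the median was -0.040 under the above scaling and -0.039 with the trend removed, and leaving out single libraries gave 0 to 2 calls (2 without Con replicate 2), medians -0.13 to -0.06. In the other 3 comparisons it gave 0, with medians of 0.01 to 0.04, -0.04 to -0.02 and -0.04 to 0.01. The tissue difference gave 1 call with a 1.5-fold threshold, 6 in the 8 Con libraries and 23 without midbrain MPTP-Veh replicate 4. The interaction gave 2 in 16 libraries and 15 to 24 with single libraries left out.

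Groups shared replicate numbers, which the labels tie to no animal or batch. In no comparison did all 4 pairs correlate above 0.1 (at most 3, in midbrain), so they were not taken as pairs, though 10 of 20 midbrain libraries correlated best with their own number in spinal cord. With the replicate block 19 members were called for MPTP-SU against MPTP-Veh in midbrain (median -0.41), 5 and 1 in the tests among 5 groups in midbrain and spinal cord, 17 for the tissue difference, 16 for the interaction and 0 elsewhere. With 4 libraries per group, differences of small size may not have been detectable.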
